A study of Mus musculus with 24 samples.

Results

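Blood glucose between meals is held by the liver, which breaks down glycogen and makes new glucose from lactate, glycerol and amino acids. After a meal the hepatocyte takes glucose in through a low-affinity transporter, phosphorylates it with glucokinase and stores it as glycogen or sends it down glycolysis. Insulin, glucagon and glucocorticoids set the balance between these routes largely through transcription of a small group of genes, and acetylation of histone H3 at lysine 27 (H3K27ac) marks promoters and enhancers in use. The genes described here are 9 of that group, chosen by name: Pck1, G6pc, Fbp1 and Ppargc1a for gluconeogenesis, Pklr for glycolysis, Gckr for the control of glucokinase, Gys2 and Pygl for glycogen, and Slc2a2 for glucose transport. They are 9 of 22350 protein-coding genes on the autosomes and X. The window of a gene was its body plus 10 kb on each side on the mouse genome build mm9. Every H3K27ac peak touching a window was counted, and only its bases inside the window were taken as covered.

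H3K27ac was measured by ChIP-seq in whole livers of male and female mice of the C57BL/6J strain (B6) and of the wild-derived CAST/EiJ strain (CAST), 8 weeks old in the sample labels, with no treatment or engineered allele named for any group. The 20 livers fell into 4 groups of 5, B6 male, B6 female, CAST male and CAST female, each with 1 input library of unprecipitated chromatin. The study sought cis regulatory elements (CREs) that differ between the sexes and asked which of them the strains share, and the strains are compared within each sex here as well. The deposited peak lists pool the 5 livers of a group, so each group is 1 value with no spread between livers, no difference below carries a test, and 1.5-fold is used as a fixed size for calling a difference.

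Groups were taken from the sample titles, because the strain field of the labels names every female CAST/EiJ and every male C57BL/6J. According to the study's methods, each group of samples handled together, from liver collection onward, held both strains and sexes, while its ChIP sample numbers form a series for each strain. CAST reads were mapped to a genome of their own before conversion to mm9, so strain cannot be told apart from mapping. The lists held 79862 peaks for B6 males and 82181 for B6 females, and 90228 for CAST males and 84645 for CAST females. Merging peaks that overlapped by at least 1 base gave 119348 regions. The liver label held against its markers: 6 of 6 hepatocyte markers had a promoter peak in all 4 lists, as did 2 of 3 endothelial, 1 of 3 stellate and 2 of 3 cholangiocyte markers, while 0 of 3 Kupffer cell, 0 of 3 T and B cell and 0 of 3 neuron and muscle markers did. Summed promoter bases of the hepatocyte markers ranged from 16407 to 17436 across the lists, those of the endothelial markers from 6216 to 8576, and those of the cholangiocyte markers from 2535 to 3209. Within the last, Epcam had 566 and 450 bp in males and females of B6 against 1093 and 890 bp in those of CAST, and Sox9 had 2535 and 2085 against 2116 and 2178 bp. Of the stellate markers, Reln had 2340 and 2400 bp in males and females of B6 against 1481 and 865 bp in those of CAST, Lrat had 231 bp in CAST females alone, and Des was at 0 in every list. Single hepatocyte markers varied more than their sum, from 1380 to 2683 bp across the lists at Apoa1 and from 1116 to 1815 bp at Alb. The part of the Epcam, Reln and single hepatocyte marker differences in the comparisons below was not tested. In whole tissue, fewer cells carrying a mark and less mark per cell cannot be told apart.

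The sequences just upstream of the transcript starts are shown first, because the peaks of several of these genes lie on either side of the start and not over it. RefSeq promoters were matched for 8 of the 9 genes and found at 1 place each on mm9. The 250 bases before the start of Pck1 (chr2:172978324-172978573, plus strand), G6pc (chr11:101228780-101229029, plus strand), Ppargc1a (chr5:51958965-51959214, minus strand) and Gckr (chr5:31599686-31599935, plus strand) read 5′ to 3′ as below, with every match to a searched motif in capitals.
Pck1: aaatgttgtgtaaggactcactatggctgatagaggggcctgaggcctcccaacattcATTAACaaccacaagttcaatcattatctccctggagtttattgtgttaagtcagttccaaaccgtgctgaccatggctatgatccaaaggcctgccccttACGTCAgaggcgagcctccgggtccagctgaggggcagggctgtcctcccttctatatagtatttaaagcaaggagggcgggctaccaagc
G6pc: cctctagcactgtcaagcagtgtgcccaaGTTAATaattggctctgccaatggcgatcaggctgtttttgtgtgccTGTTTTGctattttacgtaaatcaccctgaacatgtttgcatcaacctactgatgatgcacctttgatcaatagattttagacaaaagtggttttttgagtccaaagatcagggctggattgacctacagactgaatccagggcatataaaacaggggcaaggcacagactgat
Ppargc1a: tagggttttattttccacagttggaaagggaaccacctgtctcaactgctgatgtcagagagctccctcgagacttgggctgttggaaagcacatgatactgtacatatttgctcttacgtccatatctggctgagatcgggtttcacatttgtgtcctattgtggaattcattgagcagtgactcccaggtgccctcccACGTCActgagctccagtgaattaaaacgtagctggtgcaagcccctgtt
Gckr: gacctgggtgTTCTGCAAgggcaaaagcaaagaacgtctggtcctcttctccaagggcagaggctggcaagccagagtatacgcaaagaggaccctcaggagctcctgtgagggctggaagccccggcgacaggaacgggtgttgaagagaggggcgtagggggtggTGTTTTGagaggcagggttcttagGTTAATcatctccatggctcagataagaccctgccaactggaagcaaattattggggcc

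The letters searched on both strands were ACGTCA (the core of the cAMP response element, through which glucagon acts), TGTTTTG (the core of the insulin response sequence bound by FOXO factors), GTTAAT (part of the HNF1 site), TTGCNNAA (the site of C/EBP factors), CACGTG (the E-box), TGTTTAC (FOXA) and CAAAGTCCA or CAAAGGTCA (HNF4A). Pck1 held ACGTCA from 91 to 86 bases before the start and ATTAAC, the reverse complement of GTTAAT, from 192 to 187. G6pc held GTTAAT from 221 to 216 and TGTTTTG from 174 to 168 bases before its start. Ppargc1a held ACGTCA from 50 to 45 bases before the start. Gckr held TTCTGCAA, a reverse complement of the C/EBP letters, from 240 to 233, TGTTTTG from 83 to 77 and GTTAAT from 59 to 54. No searched letters were found upstream of Fbp1, Pklr (at either of 2 starts), Pygl or Slc2a2. Of 32851 RefSeq promoters cut to the same length, 6.47% held ACGTCA, 5.56% TGTTTTG, 6.43% GTTAAT, 9.56% TTGCNNAA, 6.02% CACGTG, 3.17% TGTTTAC and 0.807% the HNF4A letters. These matches are descriptions of the reference sequence and were not tested as binding sites.

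The 9 windows span 495568 bp and held 91 regions. There were 82 and 79 peaks for males and females of B6, and 87 and 73 for those of CAST, covering 65322, 64207, 68396 and 65479 bp. Summed over the genes, coverage thus moved little, from 12.96% of the windows in B6 females to 13.8% in CAST males. Promoter peaks, those within 2.5 kb of any annotated transcript start, covered 30913, 30565, 32328 and 30008 bp. Distal peaks covered 34409, 33642, 36068 and 35471 bp in the same order. Distal peaks made up 56.1% to 62.1% of the members' peaks across the lists, against 70.9% to 72.1% of all peaks.

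**Figure D1:**
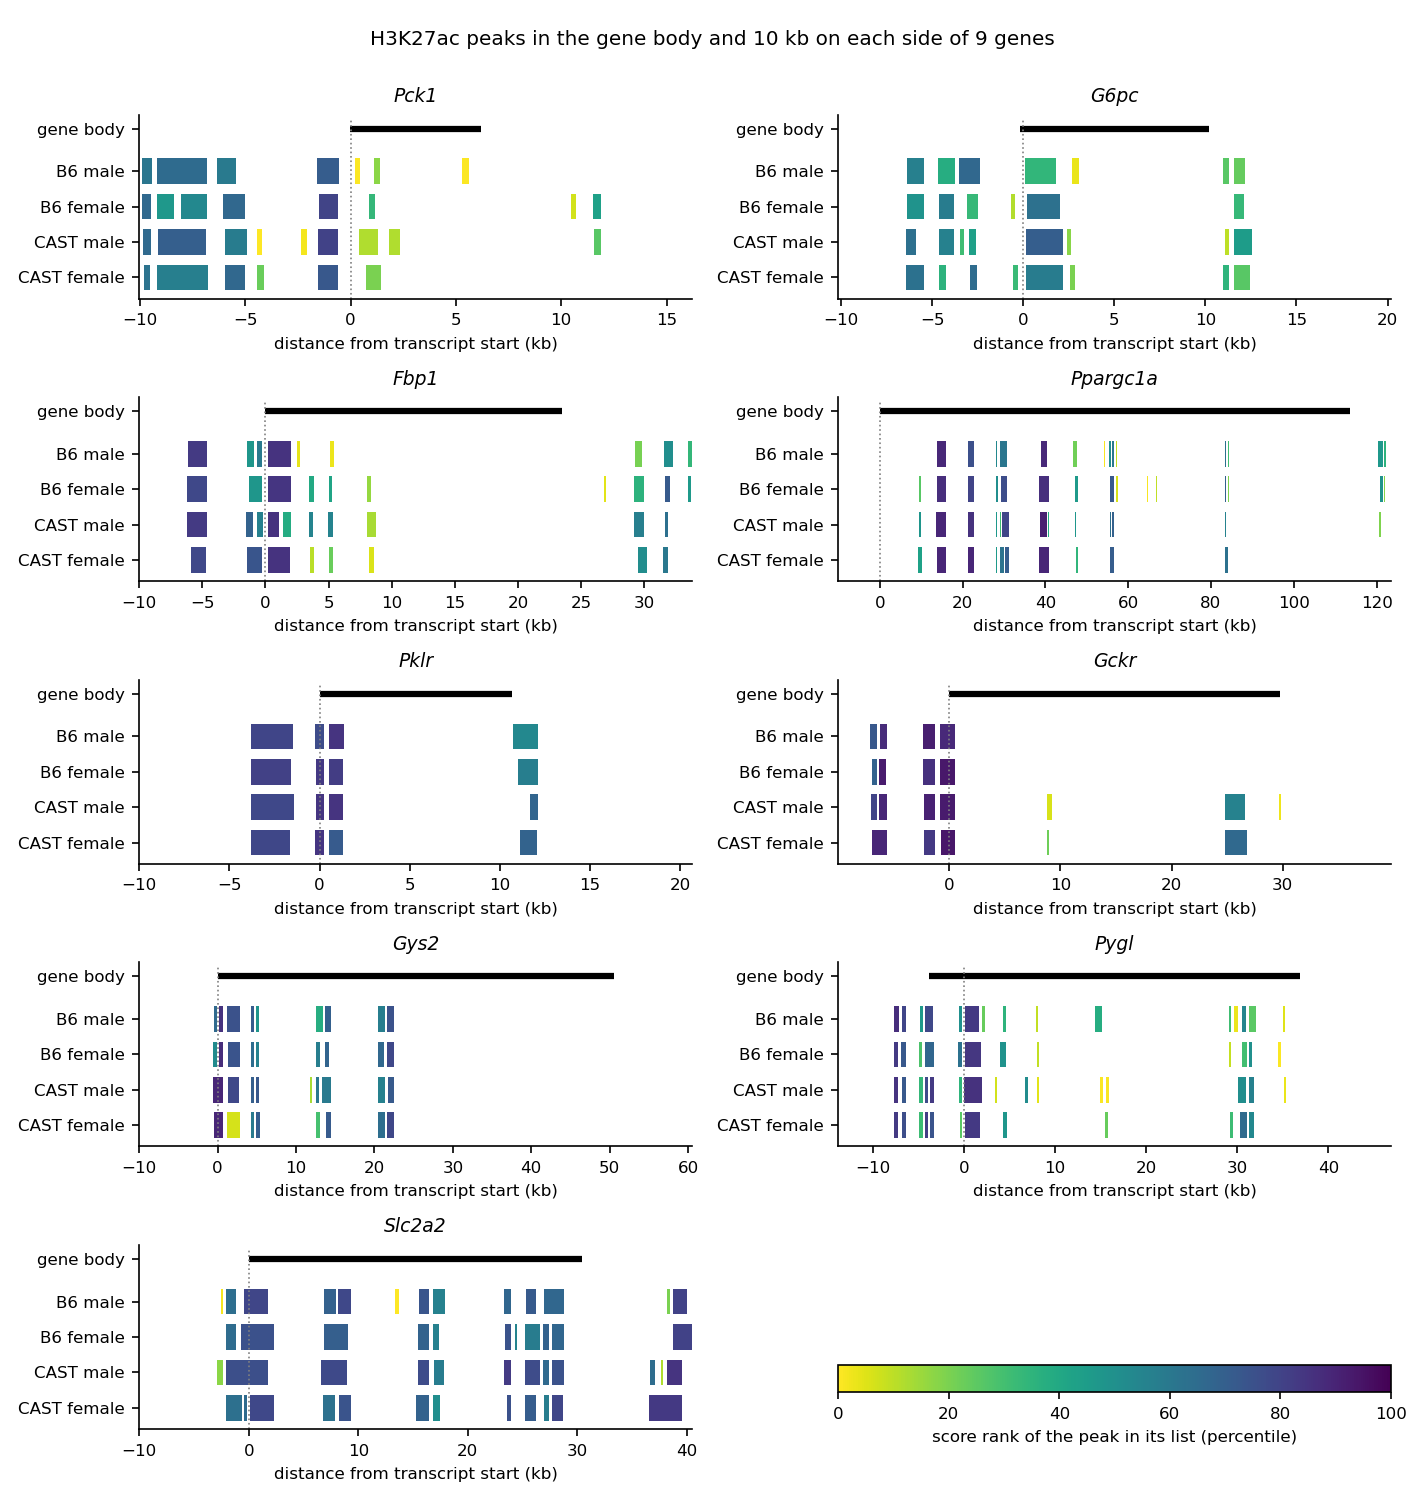
Peaks of the 4 lists (rows) along each gene, with distance from the transcript start in kb on the x axis, the gene body as a black bar and the start as a dotted line. Colour gives the score rank of a peak among all peaks of its list. The 1970 bp region of Gckr near its 3′ end appears in the CAST rows only, and at Pck1 and G6pc the peaks flank the start.

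All 9 genes had a peak within 2.5 kb of a transcript start of their own in all 4 lists, as did 57.6% of the 22350 protein-coding genes. Fold enrichment here is the ratio of overlapping fragments at the peak summit to the local background that the peak caller estimated, and the score rank of a peak is its percentile among all peaks of its list. The highest-scoring promoter peak reached 2.004-fold to 2.32-fold at Pck1 and 1.9996-fold to 2.16-fold at G6pc across the lists, and 3.55-fold to 4.40-fold at Gckr and 3.72-fold to 4.04-fold at Ppargc1a. The other 5 genes lay between. In B6 males the Gckr value came from a peak over a start of the neighbour Fndc4, 1.29 kb upstream, and the peak over the Gckr start had 3.40-fold. Among 12883 genes with a promoter peak in every list, the highest promoter fold, averaged over the lists, stood at percentile 0.629 for Pck1, 0.373 for G6pc, 2.38 for Slc2a2, 5.43 for Fbp1, 6.99 for Pygl, 9.95 for Pklr, 14.8 for Gys2, 23.7 for Ppargc1a and 27.9 for Gckr. All 9 were thus in the lower part of the range by fold. Among the same genes, the mean share of the window under peaks stood at percentile 99.4 for Slc2a2, 97.4 for Pck1, 91.8 for G6pc, 82.5 for Fbp1, 82.3 for Pklr and 70.1 for Pygl. Gckr at 57.9, Gys2 at 54.8 and Ppargc1a at 51.9 were near the middle by this share. By covered bases, which are not divided by the window's length, the percentiles among all 22350 genes were 96.5 for Ppargc1a, 87.6 for Gys2 and 78.1 for Gckr.

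The local background at these peaks was high. From the fold and the p-value of a peak, the background and the number of overlapping fragments at its summit can be solved under the caller's own formulas. The median background of the members' peaks was 92.2 and 82.7 fragments for males and females of B6, and 88.0 and 77.9 for those of CAST, against 30.8, 30.2, 28.1 and 27.5 over 3000 peaks drawn from each list. The most common background of a list was 17.1 to 18.9. Of the members' peaks, 74.7% to 80.8% had more than 2 times that value, against 36.3% to 40.9% of all peaks. In B6 males the promoter peak of Pck1 had 2.06-fold enrichment on 280 overlapping fragments, and that of Ppargc1a 4.04-fold on 256. In B6 males the background at the promoter peak was lowest for Ppargc1a, at 62.7, where the fold was highest. The background did not order all genes by fold, being 134 at 2.53-fold for Pygl and 114 at 2.06-fold for G6pc in B6 males. It was solved from the fold itself, and the peaks drawn from each list were not matched for promoters, so the values are a description. Fragment numbers were not adjusted for read depth, which the lists do not give, so they are not on a common scale between lists. What sets the local background at these genes was not tested.

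**Figure D2:**
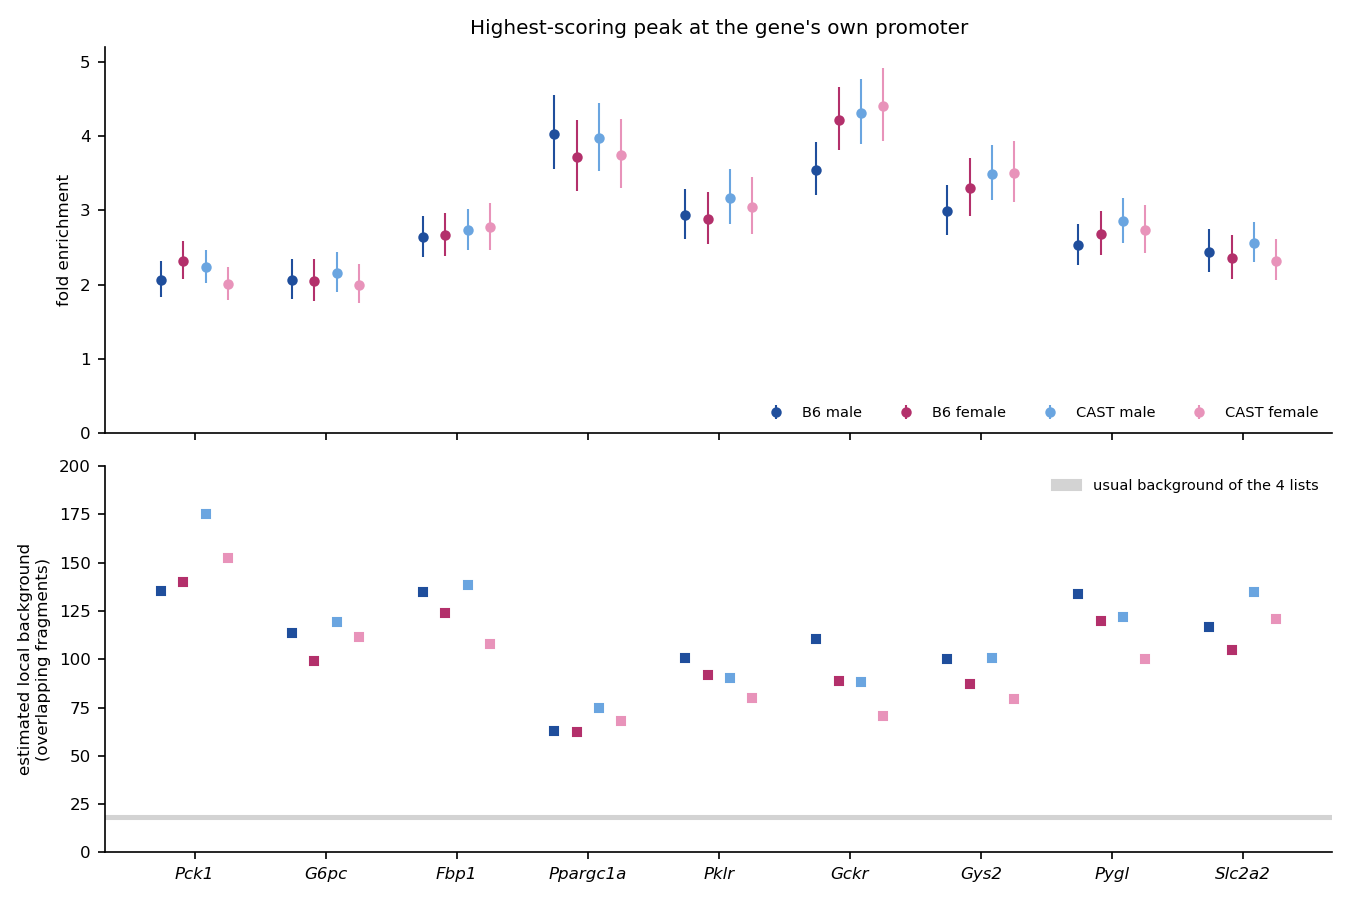
Fold enrichment (upper axis) and estimated local background in overlapping fragments (lower axis) of the highest-scoring peak at each gene's own promoter, by list. The highest-scoring peak is not the same region in every list for G6pc, Pklr, Gckr and Slc2a2. Bars are 95% exact Poisson intervals on the fragments at the summit and cover counting error only, and the grey band is the usual background of the 4 lists, 17.1 to 18.9. Pck1 and G6pc have the lowest folds and Gckr and Ppargc1a the highest, while every background lies well above the band.

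Of the 91 regions, 54 were called in all 4 lists, or 59.3% (95% Wilson interval 49.1 to 68.9, counting error only), against 42.1% of the regions in windows of all protein-coding genes. Regions called in 1 list numbered 16, or 17.6%, against 31.7%. Regions called in 1 sex only of B6 numbered 20 (21.98%, against 26.1%) and of CAST 15 (16.5%, against 28.3%). B6 males and females shared 3 regions that neither CAST list called (3.30%, against 3.8%), and 4 regions were of the reverse kind (4.40%, against 5.85%). The sex and strain classes were thus near or below their background shares, and regions called in every list were above it. Among promoter regions 26 of 33 were called in all 4 lists (78.8%, against 63.7%), and among distal regions 28 of 58 (48.3%, against 32.6%).

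Regions called in fewer than 4 lists were narrow and ranked low. The 54 shared regions had a median width of 1166 bp, and their best score rank in any list had a median of 75.4. The other 37 had a median width of 357 bp and a median best rank of 17.4, and 4 of the 37 reached the upper 50% of a list, against 50 of the 54. Of the 16 regions called in 1 list, the widest was 495 bp. A missing peak is therefore given below as a missing call and not as absent acetylation.

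**Figure D3:**
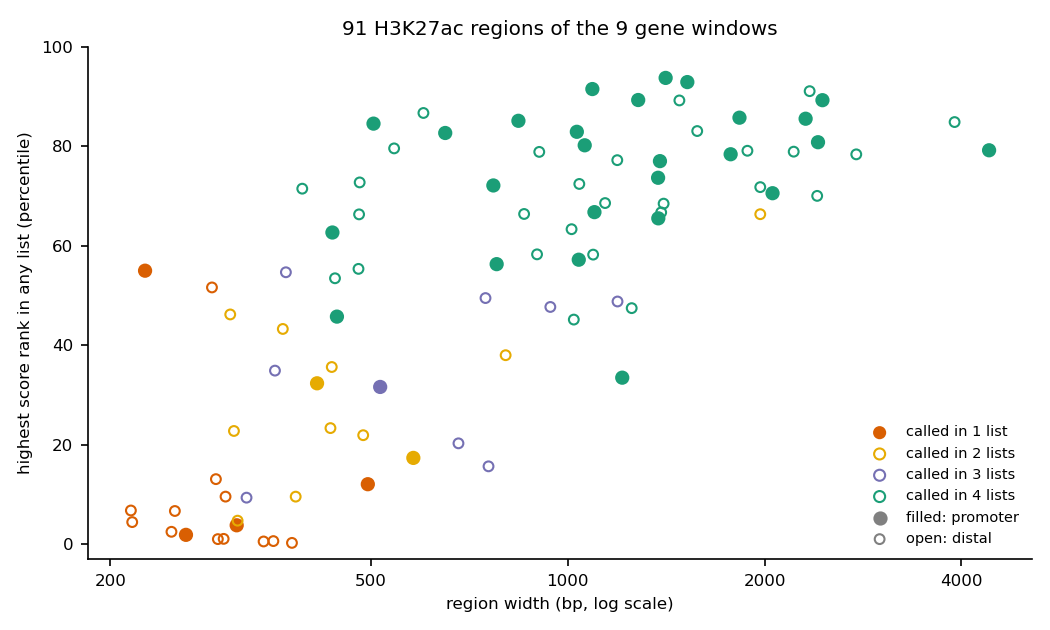
Width in bp (log scale) and highest score rank in any list (percentile) of the 91 regions, coloured by the number of lists that call them, filled for promoter and open for distal regions. Regions called in 4 lists fill the upper right, with a median rank of 75.4, and those called in 1 list the lower left. The open point of a region called in 2 lists at 1970 bp is the CAST-only region of Gckr.

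Pck1 (ENSMUSG00000027513.5, chr2:172978549-172984774, plus strand) encodes the cytosolic phosphoenolpyruvate carboxykinase, which commits oxaloacetate to glucose synthesis. Its window of 26226 bp held 7, 8, 9 and 6 peaks in B6 males, B6 females, CAST males and CAST females. They covered 5682, 5413, 6892 and 5533 bp, so CAST males were highest and the other lists lay close together. Upstream of the start, 4 regions were called in every list. The widest of them spanned 2407 bp and lay 6.78 kb from the start, with 1.91-fold, 1.70-fold, 1.89-fold and 1.69-fold enrichment. The strongest, 1062 bp wide and ending 551 bp from the start, had 2.06-fold, 2.32-fold, 2.24-fold and 2.004-fold enrichment, on 280, 327, 394 and 307 overlapping fragments. The 95% counting interval of its fold was 1.83 to 2.32 in B6 males and 2.08 to 2.59 in B6 females, so the intervals overlapped.

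The Pck1 start itself, with the upstream sequence shown above, lay between peaks in all 4 lists. The uncalled stretch around it measured 770 and 1476 bp in males and females of B6, and 1006 and 1359 bp in those of CAST. The region just downstream, called in every list, was weaker, at 1.38-fold to 1.58-fold. Of the 11 regions at Pck1, 6 were not shared by all lists: 4 were called in 1 list, 1 in both CAST lists and 1 in B6 females and CAST males. The widest of these 6 was 495 bp and the highest score rank among them was percentile 43.3.

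G6pc (ENSMUSG00000078650.2, chr11:101228875-101239217, plus strand) encodes the catalytic subunit of glucose-6-phosphatase, which releases free glucose from the hepatocyte. It had 7, 6, 8 and 8 peaks covering 5988, 4923, 5501 and 5570 bp in the same order of lists. B6 females were the lowest list and B6 males the highest, 1.22-fold apart. A region of 2057 bp beginning 118 bp downstream of the start was called in every list, at 1.63-fold in B6 males, 2.05-fold in B6 females, 2.16-fold in CAST males and 1.97-fold in CAST females. Upstream, 3 regions from 2405 to 5439 bp before the start were shared by all lists.

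Close to the G6pc start, a region of 414 bp ending 282 bp upstream of it was called in females of both strains and in neither male list. Its folds were 1.46 in B6 females and 1.62 in CAST females, with 153 and 163 overlapping fragments, at percentiles 11.4 and 32.4 of those lists. With that peak absent, the uncalled stretch around the start was 2523 bp in B6 males and 2744 in CAST males, against 635 in B6 females and 428 in CAST females. It was the only region of the 91 called in both female lists and neither male list (1.10%, against 1.22% in windows of all protein-coding genes). A different pattern was seen 2.38 kb downstream, where a region of 681 bp was called at 1.46-fold in B6 males, 1.54-fold in CAST males and 1.62-fold in CAST females but not in B6 females. Those 3 calls stood at percentiles 3.43, 17.9 and 20.3 of their lists.

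Fbp1 (ENSMUSG00000069805.4, chr13:62966113-62989642, minus strand) encodes liver fructose-1,6-bisphosphatase, a regulated step of gluconeogenesis. Its window also takes in Fbp2, the muscle form, and the transcript Gm17367, and 8 of its 11 regions lay nearest a start of these neighbours. It held 9, 10, 10 and 8 peaks covering 6088, 6736, 6634 and 6189 bp, all within 1.11-fold. The strongest region at a start of Fbp1 itself, 1831 bp wide and 175 bp downstream, was nearly level, at 2.64-fold, 2.66-fold, 2.74-fold and 2.77-fold. A distal region of 1578 bp lay 4.62 kb upstream at 3.32-fold, 3.13-fold, 3.33-fold and 3.08-fold, the highest enrichment nearest the Fbp1 start itself. Intronic regions 8.03 kb (757 bp wide) and 3.45 kb (371 bp) downstream were called in every list but B6 males, at 1.49-fold to 1.51-fold and 1.42-fold to 1.71-fold. The calls of the 757 bp region stood at percentiles 5.54 to 15.7, and with lists shortened to equal length its CAST female call was lost.

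Ppargc1a (ENSMUSG00000029167.7, chr5:51845488-51958964, minus strand) encodes PGC-1alpha, a coactivator that fasting and glucagon induce and that raises transcription of Pck1 and G6pc. The gene is the longest of the 9 and its 15 regions were mostly distal, with 1 at a promoter and 14 elsewhere. It had 14, 15, 13 and 10 peaks covering 11432, 12920, 10401 and 11697 bp, with the female list the higher in each strain, by 1.13-fold in B6 and 1.12-fold in CAST. No peak lay within 2.5 kb of the start whose upstream sequence is given above: the nearest was 13880 and 9456 bp downstream in males and females of B6, and 9376 and 9175 bp in those of CAST. The promoter region of the gene lay instead at annotated starts near chr5:51945160, spanned 2452 bp and reached 4.04-fold, 3.72-fold, 3.97-fold and 3.75-fold.

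Inside Ppargc1a, a region of 2344 bp lying 38.6 kb downstream of the upstream start had folds of 4.47, 3.87, 4.82 and 3.88, and 1 of 1482 bp at 21.3 kb had 3.67, 3.71, 4.62 and 4.42. Both were called in every list and ranked at percentiles 75.6 to 91.1. The regions of Ppargc1a with missing calls reached at most 2.76-fold. An intronic region of 941 bp at 9.18 kb was called at 1.99-fold in B6 females, 2.29-fold in CAST males and 2.14-fold in CAST females and not in B6 males. A region of 1192 bp beyond the 3′ end was called at 2.67-fold, 2.76-fold and 2.29-fold in B6 males, B6 females and CAST males and not in CAST females. A further 2 narrow regions (436 and 384 bp) were called in both B6 lists and in neither CAST list, at 1.88-fold to 2.40-fold.

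Pklr (ENSMUSG00000041237.6, chr3:88940064-88950706, plus strand) encodes the liver and red cell pyruvate kinase, the last step of glycolysis, and is induced by glucose and insulin. It was the only gene of the 9 at which every region, 4 of 4, was called in all 4 lists. The 4 peaks of each list covered 5038, 4542, 4042 and 4364 bp. A region of 505 bp over the first RefSeq start had folds of 2.49, 2.88, 3.13 and 3.05, and an upstream region of 2414 bp had 2.67, 2.78, 2.72 and 2.74. The distal region, 10.7 kb downstream and nearest a start of the neighbour Hcn3, held 1384 and 1096 bp in males and females of B6, and 435 and 925 bp in those of CAST, with folds of 2.79, 3.07, 3.68 and 3.49. Its width was thus lowest in the list where its fold was highest.

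Gckr (ENSMUSG00000059434.5, chr5:31599954-31629673, plus strand) encodes the glucokinase regulatory protein, which holds glucokinase in the hepatocyte nucleus when glucose is low. It was the gene of the 9 with the largest strain difference. Its 4, 4, 7 and 5 peaks covered 3651 and 3520 bp in males and females of B6, and 6136 and 5796 bp in those of CAST, so both CAST lists lay above both B6 lists. Promoter peaks did not differ in this way, covering 3651, 3520, 3620 and 3590 bp. Distal peaks covered 0 bp in both B6 lists, 2516 bp in CAST males and 2206 bp in CAST females.

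Most of the distal coverage at Gckr came from a region of 1970 bp at chr5:31624713-31626682, in an intron 24.8 kb downstream of the start. It was called as 1848 bp at 3.35-fold in CAST males and as 1970 bp at 3.70-fold in CAST females, on 63.2 and 76.2 overlapping fragments, at percentiles 56.1 and 66.4 of those lists. Neither B6 list had a call there, and peak numbers ran without a gap through the window in all 4 lists, so no B6 peak had been removed from it. A weaker CAST-only region of 487 bp lay 8.75 kb downstream over an exon, at 2.02-fold and 2.36-fold and percentiles 6.17 and 21.9, and lost its CAST male call with lists shortened to equal length, whereas the 1970 bp region kept both. A stretch of 300 bases within the 1970 bp region, placed midway between the summits of the CAST lists, which lay 316 bp apart, is shown as an example of the sequence under these peaks and does not reach either summit. It is mm9 reference sequence, which is B6, at chr5:31625225-31625524 on the plus strand, overlaps 0 exons of Gckr and holds none of the letters searched at the promoters.
Gckr intronic region: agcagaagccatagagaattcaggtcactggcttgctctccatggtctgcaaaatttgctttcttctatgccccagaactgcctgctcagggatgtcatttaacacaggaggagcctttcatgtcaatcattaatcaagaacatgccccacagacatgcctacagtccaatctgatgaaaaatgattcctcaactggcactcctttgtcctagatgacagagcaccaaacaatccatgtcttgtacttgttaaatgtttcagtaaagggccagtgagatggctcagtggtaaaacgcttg

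The promoter region of Gckr, 1412 bp over the start and the sequence given above, was called at 3.40-fold in B6 males, 4.22-fold in B6 females, 4.31-fold in CAST males and 4.40-fold in CAST females. B6 males were the lowest list there. At the next region upstream, 1091 bp nearest a start of the neighbour Fndc4, the order differed, with 3.55-fold and 3.62-fold in B6 and CAST males and 2.88-fold and 2.90-fold in B6 and CAST females. The fragments at its summit numbered 394 and 390 in B6 and CAST males and 319 and 248 in B6 and CAST females. The male list was thus the higher in each strain at the Fndc4 region by fold, and by fragments not adjusted for read depth. At the Gckr start the fragments numbered 313 and 377 in males and females of B6 and 383 and 314 in those of CAST, so the CAST lists changed order between the measures, and the counting intervals of their folds, 3.89 to 4.77 and 3.93 to 4.92, overlapped.

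Gys2 (ENSMUSG00000030244.7, chr6:142371133-142421629, minus strand) encodes liver glycogen synthase. It had 9, 9, 9 and 8 peaks covering 6575, 5922, 6755 and 6396 bp, and 7 of its 8 regions were called in every list. The region of 1282 bp over the start had 2.99-fold enrichment in B6 males, 3.30-fold in B6 females, 3.497-fold in CAST males and 3.504-fold in CAST females. The start lay in a gap of 265 and 260 bp between peaks in B6 males and females and under a peak in both CAST lists. The intronic pair 21.6 and 20.5 kb downstream had 3.30-fold, 3.59-fold, 3.38-fold and 3.76-fold, and 2.51-fold, 2.86-fold, 2.60-fold and 2.87-fold, with the female list higher in each strain at both regions. A peak of 1604 bp in CAST females, 1.14 kb downstream of the start, ranked at percentile 6.28 although its fold was 2.61. Its fold and p-value together imply a background of 7.58, below the 17.1 of its list, so its fragment number was not used.

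Pygl (ENSMUSG00000021069.10, chr12:71291798-71332475, minus strand) encodes liver glycogen phosphorylase, which releases glucose units from glycogen. It had the most regions, 17, and the fewest in proportion shared by all lists, 8, apart from Pck1 with 5 of 11. Its 15, 12, 15 and 12 peaks covered 8089, 7016, 7476 and 6356 bp, so the male list was the higher in each strain, by 1.15-fold in B6 and 1.18-fold in CAST. The region at the start, 2311 bp wide, was close to level at 2.53-fold, 2.68-fold, 2.85-fold and 2.73-fold. A distal region 7.13 kb upstream reached 3.41-fold, 3.14-fold, 3.43-fold and 3.30-fold.

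An intronic region of Pygl, 804 bp wide and 14.4 kb downstream, was called in males of both strains and in neither female list. Its fold was 2.29 over 759 bp in B6 males and 1.73 over 282 bp in CAST males, at percentiles 38.0 and 0.642, so the CAST call was near the bottom of its list. Another region of this kind, 313 bp wide, ranked at percentiles 4.73 and 3.43. With each list shortened to the length of the shortest, both lost their CAST male call. The region of 749 bp at 3.94 kb was called at 1.62-fold, 1.78-fold and 1.86-fold in every list but CAST males, and so was 1 of 517 bp at 29.1 kb, at 1.87-fold to 2.19-fold. A region of 286 bp at 6.74 kb was called in CAST males alone, at 2.14-fold.

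Slc2a2 (ENSMUSG00000027690.7, chr3:28596825-28627278, plus strand) encodes GLUT2, the main glucose transporter of the hepatocyte membrane. Its coverage was the highest of the 9 genes, with 12779, 13215, 14559 and 13578 bp under 13, 11, 12 and 12 peaks, or 25.3%, 26.2%, 28.9% and 26.9% of the window. Regions were spread through the gene. The widest of all 91, 4408 bp over the start, had 2.45-fold, 2.35-fold, 2.32-fold and 2.33-fold enrichment. The strongest, 3904 bp wide and 36.6 kb downstream, had 3.22-fold, 3.06-fold, 4.04-fold and 3.91-fold, and lay nearest the start of another transcript. Its fragments, not adjusted for read depth, numbered 191, 200.3, 205 and 161 on backgrounds of 58.6, 64.7, 49.95 and 40.4. The fold was thus higher in CAST in both sexes, while the fragments in CAST females were the fewest. A region of 581 bp ending 2.32 kb upstream of the start was called in males of both strains only, at 1.37-fold in B6 and 1.502-fold in CAST, at percentiles 1.44 and 17.4. Regions called in males of both strains and in neither female list numbered 3 of the 91 (3.30%, against 2.29% in windows of all protein-coding genes). A narrow region of 226 bp at 24.3 kb was called in B6 females alone, at 1.81-fold.

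**Figure D4:**
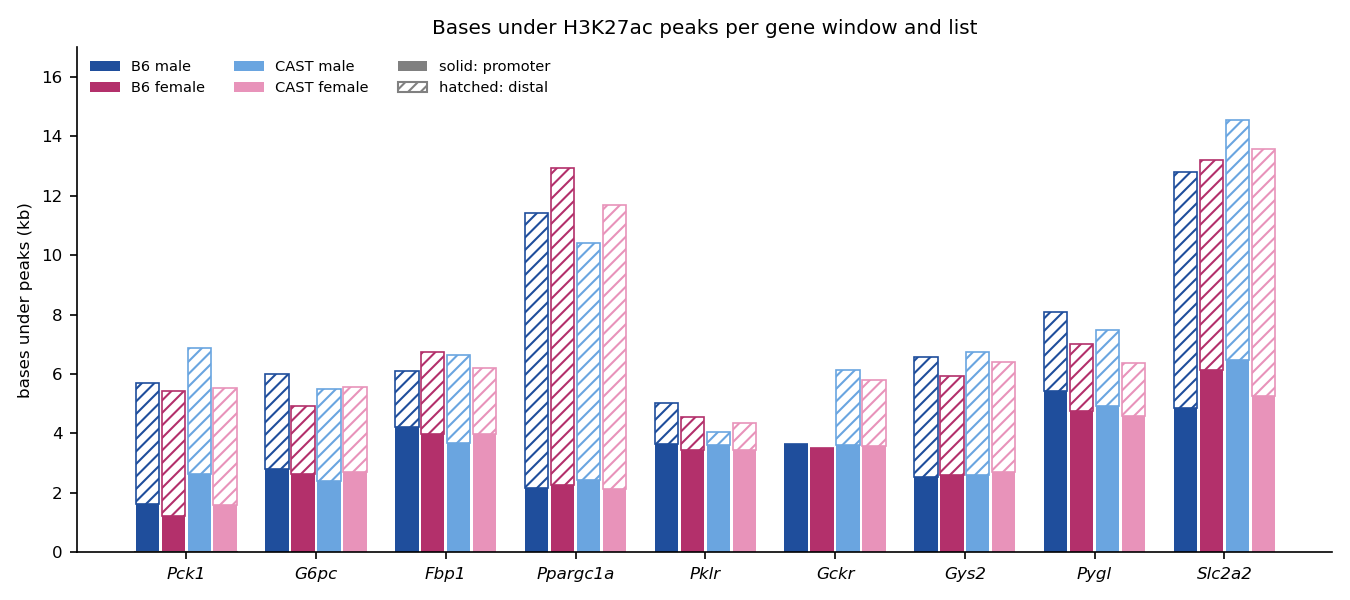
Bases under peaks in kb for each gene and list, solid for promoter peaks and hatched for distal peaks. Bars start at 0 and carry no error, since each list pools the livers of its group. Gckr has distal bases in the CAST lists only, and Slc2a2 and Ppargc1a have the most coverage.

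Between the sexes, 0 of the 9 genes differed by 1.5-fold in covered bases in either strain. Across all genes with a mean of at least 1000 covered bp, 4.13% were called higher in B6 males and 2.71% in B6 females, of 14760 genes, and 6.98% were called higher in CAST males and 1.35% in CAST females, of 14892. Males had the more covered bases at 6 of 9 genes in each strain, and across the alternatives tried at 2 to 6 of 9 in B6 and at 4 to 8 of 9 in CAST. The 6 genes were G6pc, Pygl, Gys2, Pklr, Pck1 and Gckr in B6, and Pck1, Pygl, Slc2a2, Fbp1, Gckr and Gys2 in CAST. The median log2 ratio of males over females was 0.07 for the members against 0.05 for all genes in B6, and 0.08 against 0.11 in CAST. The members' medians thus lay close to those of all genes in both strains.

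The widest sex ratios were small. At G6pc the log2 ratio of males over females was 0.28 in B6, at percentile 83.6 of all genes, and -0.02 in CAST, at percentile 26.9. At Pck1 it was 0.07 in B6 and 0.32 in CAST, at percentiles 54.6 and 78.5. Pygl leaned to males in both strains, at 0.21 and 0.23, and Ppargc1a to females in both, at -0.18 and -0.17. These last were at percentiles 15.99 and 10.6 of all genes. The B6 and CAST comparisons share no list, while each sex comparison shares its lists with the strain comparisons.

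Between the strains, 1 of the 9 genes, Gckr, passed 1.5-fold, and it did so in both sexes. Its bases were 1.68-fold higher in CAST males than B6 males and 1.65-fold higher in CAST females than B6 females. Of all genes, 8.49% were called higher in CAST males and 4.04% in B6 males (14971 genes), and 8.21% were called higher in CAST females and 8.82% in B6 females (14826 genes). A count of 1 in 9 is thus close to these background shares. The log2 ratio of B6 over CAST at Gckr was -0.75 in males and -0.72 in females, at percentiles 5.19 and 5.54 of all genes. In males the call depended on the length of the lists: with each list shortened to the length of the shortest, the ratio was 1.498, just under 1.5, whereas in females it was unchanged at 1.65. With the gene body alone it was 2.84 in males and 2.49 in females.

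The other 8 genes lay within 1.25-fold between strains. B6 had the more covered bases at 4 of 9 genes in males (Pklr, Ppargc1a, G6pc and Pygl) and at 4 of 9 in females (Ppargc1a, Pygl, Fbp1 and Pklr). Pklr in males was the widest of them toward B6, with a log2 ratio of 0.32 at percentile 88.5, and 0.06 in females. Pck1 in males was the widest toward CAST after Gckr, at -0.28, and -0.03 in females. The medians over the members were -0.04 in males and -0.03 in females, against -0.01 and 0.04 over all genes.

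**Figure D5:**
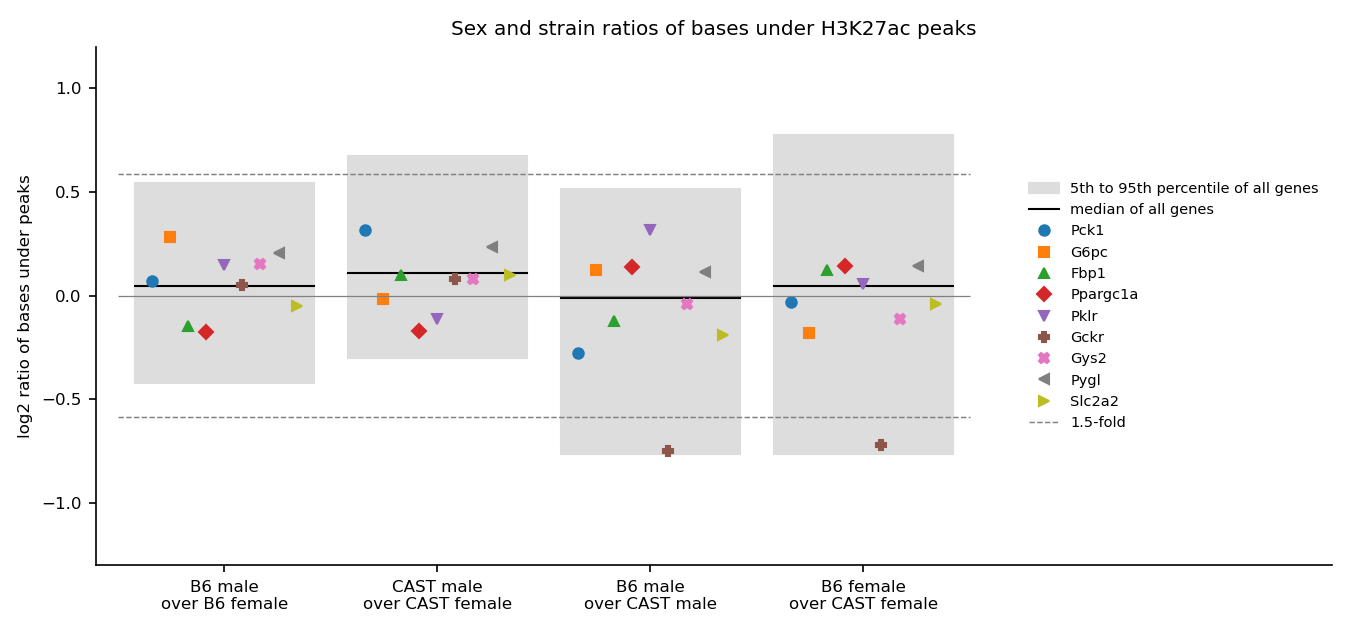
Log2 ratio of bases under peaks for the 9 genes in the 4 comparisons, with the grey boxes giving the 5th to 95th percentile of all genes, the black lines their medians and the dashed lines 1.5-fold. All members but Gckr lie inside the dashed lines in every comparison, and Gckr lies at -0.75 and -0.72 in the strain comparisons.

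Other genes of the pathway were counted in the same way. Of 31 further genes of gluconeogenesis, glycolysis, glycogen and insulin or glucagon signalling, 31 had a promoter peak in all 4 lists, against 57.6% of all protein-coding genes. In the comparison of B6 with CAST females 1 of 31 passed 1.5-fold, where 8.82% of all genes were called higher in B6 and 8.21% in CAST. In the other 3 comparisons 0 of 31 did, against background shares of 4.13% and 2.71% between B6 sexes, 6.98% and 1.35% between CAST sexes, and 4.04% and 8.49% between strains in males. That gene, named after its value was seen, was Ugp2, which makes the glucose donor for glycogen, with 7308 bp in B6 females and 4358 bp in CAST females. Coverage was highest at Pcx, the pyruvate carboxylase that opens gluconeogenesis (28484 to 29225 bp), Gbe1, the glycogen branching enzyme (11656 to 15171 bp), and Insr, the insulin receptor (13329 to 14335 bp). It was lowest at Phka2, a phosphorylase kinase subunit (1792 to 2539 bp), Pck2, the mitochondrial form of Pck1 (1938 to 3422 bp), and Pgam1, a glycolytic mutase (2291 to 3106 bp).

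Related forms of the members used mainly in other tissues were compared as counterparts. A promoter peak in all 4 lists was found at 7 of 8 of them, Fbp2, Pkm, Gys1, Pygm, Pygb, Slc2a1 and Slc2a4, against 57.6% of all genes, and in 0 lists at G6pc2, the islet form of the phosphatase. The liver form had the more covered bases than its counterpart in every list for G6pc over G6pc2, Fbp1 over Fbp2, Pklr over Pkm, Pygl over Pygm and Pygb, and Slc2a2 over Slc2a1 and Slc2a4, as for example 4042 to 5038 bp at Pklr against 1135 to 1755 bp at Pkm, with windows of different length. The windows of Fbp1 and Fbp2 overlap and share regions. Gys2, at 5922 to 6755 bp, and Gys1, at 5498 to 6480 bp, lay close together. At 1.5-fold, Pkm and Pygb of the 8 were higher in B6 males than B6 females (background 4.13%), Pygm was higher in CAST males than CAST females (6.98%), and Fbp2 and Pygm were higher in B6 females than CAST females (8.82%).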

How the data were processed

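Whole-liver H3K27ac ChIP-seq reads of the 5 livers of a group were pooled by the authors and aligned with Bowtie2, uniquely mapped reads were kept, and MACS2 called peaks against the group's input. CAST reads were mapped to a CAST genome and the peaks converted to mm9, and blacklisted and duplicate-read regions were removed. Each deposited list gives a score, a fold ratio over the local background, the −log10 p-value and the summit offset in bases, and a q-value that was not used here. All 4 lists were used, with 0 columns left without a sample.

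From these deposited values, peaks touching a gene plus 10 kb were counted with GENCODE vM1 genes on mm9, using python 3.11.15, numpy 2.4.6, pandas 2.3.3, scipy 1.17.1 and matplotlib 3.10.9. Covered bases were those inside the window. A difference was called at 1.5-fold in covered bases where the mean of both lists was at least 1000 bp. Fragments and background were solved from fold and p-value, a step tested on data simulated under the same formulas. The simulated backgrounds did not reach the highest ones of these peaks. That test could not check the scaling of ChIP and input, which the lists do not record. With 1 pooled list per group, no test was possible, read depth was not given in the lists, and intervals cover counting error only. All 9 genes were described, with the peaks at their own promoters and the sex- or strain-restricted regions wider than 500 bp or in the upper 50% of a list. A few other regions were named after their values were seen. The members and lists were chosen with earlier results of these data known. RefSeq promoter sequences came from a GRCm38.p6 table and were placed on mm9 by exact match. Alternatives changed the list length, the score and fold minimums, the window, the merging of peaks and the measure. In them a peak touching the window was taken with all its bases.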

Additional observations from a re-analysis of the deposited data

Results flagged for a closer look

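A narrow region 11.5 kb downstream of the Pck1 start stood out because it was called in opposite sexes of the strains. Its fold enrichment was 2.08 in the B6 female list and 1.86 in the CAST male list, and neither the B6 male nor the CAST female list called it. The difference between the strains was not tested, since each group is 1 pooled list. Regions of this kind made up 1.10% of those at the 9 genes, against 2.67% in windows of all protein-coding genes.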

How the results depend on the processing

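No paired analysis was possible because each list pools the livers of its group, and leaving out a replicate was not possible for the same reason. The share of regions called in all lists moved by less than its counting interval in all 7 alternatives tried. With each list shortened to 79862 peaks, 0 genes passed 1.5-fold between strains in males (Gckr 1.498), and 24 of the 37 regions not called in every list kept their class, against 3 with the upper 50% by score and 1 with folds of at least 3. With the upper 50% of each list by score, 55 regions remained, B6 was higher at 2 genes in each sex, 1 gene (Gys2) passed 1.5-fold between CAST sexes, and the gene passing between strains in males was G6pc and not Gckr (1.498). With folds of at least 3, 21 regions remained and 2 genes (Ppargc1a and Gckr) kept a promoter peak in every list. Under that minimum B6 males were higher than B6 females at 2 genes, and B6 was higher than CAST at 1 gene in males and 2 in females. The genes passing 1.5-fold were then 3 between B6 sexes, 1 between CAST sexes, 2 between strains in males and 4 in females. With the gene body alone there were 60 regions, 1 gene (Pck1) passed between CAST sexes and 2 (Pck1 and Gckr) between strains in males. Males were higher at 8 genes in CAST with 25 kb flanks and at 7 with fold times bases, and at 4 with shortened lists. The ratio of CAST over B6 at Gckr ranged from 1.498 to 2.84 in males and from 1.58 to 2.49 in females. With fold times bases, B6 was higher at 1 gene in males. In an alternative added after seeing the data, leaving out regions nearest another gene's start left 78 regions, 57.7% of them called in all lists. Read depth per liver, and so the limit it sets on weak peaks, was not known from the lists.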
